A study of Homo sapiens with 10 samples.

Results

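The 39 genes described here carry out homologous recombination and the Fanconi repair of DNA crosslinks, and were taken by gene name from the deposited expression table of 58735 genes. All 39 were found, and all 39 reached the level required for testing (at least 1 FPKM in at least 2 libraries), as did 13927 genes in all. FPKM counts fragments per kilobase of a gene, scaled to the total of the library, so that levels of genes of different length can be set side by side. The cells were TPC-1, a human papillary thyroid carcinoma line with a CCDC6-RET fusion, which puts the RET kinase under the control of another gene. Parental cells had been given the solvent DMSO or 5 µM BLU667 (pralsetinib, a RET kinase inhibitor) for 24 h. The colonies BR8, BR10 and BR16 had grown out of parental TPC-1 cells kept in 5 µM BLU667, for more than 50 days by the sample labels and more than 5 months by the series design. Each of the 5 groups had 2 libraries, which the series design calls biological replicates without saying whether they came from separate cultures, so that p-values measure only the spread between these libraries. Each colony was 1 line, and the 2 libraries of a colony say nothing about how other colonies would vary.

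Homologous recombination mends a broken chromosome by copying the sister chromatid, and it works mainly in S and G2 phase, when a sister is present. Broken ends are sensed by the MRE11-RAD50-NBN complex and the kinase ATM, and cut back to single strands by nucleases and helicases, and BRCA1, PALB2 and BRCA2 then prepare these strands to invade the intact copy. At a crosslink the Fanconi core complex attaches ubiquitin to FANCD2 and FANCI, which recruits nucleases and hands the resulting break to recombination. Many of these genes are known to be transcribed most in cycling cells, under E2F factors and the DREAM repressor complex.

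Promoters are shown for 8 of the members with the 3 largest called falls or rises in BLU667 against DMSO, the colonies against DMSO or the colonies against BLU667, so that those of genes that fell and of genes that rose can be compared. FANCI and NBN had no entry and are not shown. Of the 39 members, 34 had a promoter in the RefSeq table (build GRCh38.p14), which runs from 250 bases before to 50 after the start of a gene. Capitals mark exact matches on either strand to 4 short motifs, TTTCCCGC and TTTGGCGC (forms of the E2F site), TTTGAA (the core of the cell-cycle homology region that DREAM binds) and CCAAT (the NF-Y box), none of which contains another. RAD51AP1 (chr12:4538640-4538939, plus strand), CLSPN (chr1:35769929-35770228, minus), EXO1 (chr1:241847954-241848253, plus), XRCC2 (chr7:152676092-152676391, minus) and CHEK2 (chr22:28741771-28742070, minus) fell in BLU667, whereas NABP1 (chr2:191677886-191678185, plus), FANCF (chr11:22625774-22626073, minus) and ATM (chr11:108222817-108223116, plus) rose.
RAD51AP1: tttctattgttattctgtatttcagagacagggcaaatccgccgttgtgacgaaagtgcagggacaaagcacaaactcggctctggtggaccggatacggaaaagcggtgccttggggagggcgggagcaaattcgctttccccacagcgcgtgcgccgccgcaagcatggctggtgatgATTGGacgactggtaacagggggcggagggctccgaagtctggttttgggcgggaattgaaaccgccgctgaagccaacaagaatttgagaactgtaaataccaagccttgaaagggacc
CLSPN: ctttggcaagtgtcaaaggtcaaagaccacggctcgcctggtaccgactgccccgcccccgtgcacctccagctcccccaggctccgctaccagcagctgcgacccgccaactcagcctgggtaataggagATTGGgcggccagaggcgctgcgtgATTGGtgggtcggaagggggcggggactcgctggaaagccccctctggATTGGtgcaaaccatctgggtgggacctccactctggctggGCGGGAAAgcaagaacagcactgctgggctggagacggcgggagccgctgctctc
EXO1: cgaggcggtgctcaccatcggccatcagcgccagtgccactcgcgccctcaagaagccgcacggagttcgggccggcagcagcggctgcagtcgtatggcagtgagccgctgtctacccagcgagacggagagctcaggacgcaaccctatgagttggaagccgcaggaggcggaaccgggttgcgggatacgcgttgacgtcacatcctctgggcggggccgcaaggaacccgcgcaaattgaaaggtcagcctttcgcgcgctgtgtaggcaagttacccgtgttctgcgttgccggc
XRCC2: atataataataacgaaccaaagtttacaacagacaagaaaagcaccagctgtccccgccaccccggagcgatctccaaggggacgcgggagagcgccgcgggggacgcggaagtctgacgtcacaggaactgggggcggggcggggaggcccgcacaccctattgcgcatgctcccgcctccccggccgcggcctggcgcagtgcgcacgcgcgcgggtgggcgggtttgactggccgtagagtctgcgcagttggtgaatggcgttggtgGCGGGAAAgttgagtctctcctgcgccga
CHEK2: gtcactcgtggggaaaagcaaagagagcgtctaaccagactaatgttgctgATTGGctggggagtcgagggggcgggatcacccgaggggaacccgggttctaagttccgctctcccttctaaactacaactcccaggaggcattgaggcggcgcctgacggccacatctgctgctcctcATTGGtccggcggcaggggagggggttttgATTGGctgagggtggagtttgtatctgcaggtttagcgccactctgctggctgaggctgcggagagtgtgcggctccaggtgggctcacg
NABP1: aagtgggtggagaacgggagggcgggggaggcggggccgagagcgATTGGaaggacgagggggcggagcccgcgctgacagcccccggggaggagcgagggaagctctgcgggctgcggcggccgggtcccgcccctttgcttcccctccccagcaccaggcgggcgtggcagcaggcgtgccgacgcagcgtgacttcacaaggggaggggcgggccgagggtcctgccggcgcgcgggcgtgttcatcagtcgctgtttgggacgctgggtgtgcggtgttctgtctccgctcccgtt
FANCF: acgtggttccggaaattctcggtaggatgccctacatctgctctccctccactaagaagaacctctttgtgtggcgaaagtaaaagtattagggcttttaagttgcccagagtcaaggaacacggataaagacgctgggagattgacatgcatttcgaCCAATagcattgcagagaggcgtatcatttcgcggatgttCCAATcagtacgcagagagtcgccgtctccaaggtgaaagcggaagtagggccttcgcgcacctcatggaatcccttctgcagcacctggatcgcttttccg
ATM: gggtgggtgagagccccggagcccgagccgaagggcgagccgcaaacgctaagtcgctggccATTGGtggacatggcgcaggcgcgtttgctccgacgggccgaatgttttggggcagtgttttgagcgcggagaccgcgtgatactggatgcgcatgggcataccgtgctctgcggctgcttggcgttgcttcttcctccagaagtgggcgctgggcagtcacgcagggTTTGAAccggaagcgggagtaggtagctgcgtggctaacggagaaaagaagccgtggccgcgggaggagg
TTTCCCGC was found in the promoters of 5 of the 34 members (CLSPN, FANCC, FANCD2, MSH6 and XRCC2), or 14.7%, against 1.63% of all 35116 promoters of this length. TTTGGCGC stood in none of the 34, against 0.652% of all promoters. TTTGAA stood in 5 members (14.7%, against 15.2%) and CCAAT in 17 (50%, against 34.6%). The median log2 change in BLU667 was -2.78 over the 5 members with TTTCCCGC and -1.45 over the others, but the 5 ran from -3.76 (CLSPN) to -0.67 (FANCC). A match is a run of letters and shows no binding.

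Libraries held 15243703 to 21904245 reads in genes, and log2 values of the replicates of a group correlated across genes at 0.978 to 0.989. Libraries differed in a trend with transcript GC, and across genes the Spearman correlation of GC with the difference of the 2 DMSO replicates was 0.63. The members were poorer in GC than the genes tested (median 41.6% against 48.1%), and 34 of the 39 were higher in DMSO replicate 2 than in replicate 1. The trend was weak for BLU667 against DMSO (-0.13) and stronger for BR8 against BR16 (-0.61) and BR10 against BR16 (-0.54), so that colony differences are given below with the trend removed as well. Of 9 thyroid markers 4 passed the filter (PAX8, FOXE1, HHEX and GLIS3), while thyroglobulin (TG), TSHR, SLC5A5 and NKX2-1 were at or near 0. Of 13 markers of immune, endothelial, erythroid and fibroblast cells, COL1A1 and PDGFRB alone passed the filter, and 6 or 7 were at 0 in each group. The 13 summed to 3.64 FPKM in DMSO, 15.3 in BLU667, 1.47 in BR8, 1.10 in BR10 and 4.10 in BR16, and their part in the results was not tested.

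After 24 h of BLU667 most of the repair genes were lower than in DMSO. Of the 39 members 32 fell, against 31.2% of all genes tested, and 3 rose (NABP1, FANCF and ATM), against 29.0%. NBN, RAD50, RMI1 and FANCL did not pass the test. The median log2 change of the members was -1.53, against -0.01 over all genes tested. On the log2(FPKM + 1) scale used for every change here, 25 members fell more than 2-fold, beside 1556 of the 13927 genes tested. The median level of the 39 genes was 6.53 FPKM in DMSO and 1.37 FPKM in BLU667, and 14 genes lay below 1 FPKM in both BLU667 libraries. In 33 members both BLU667 libraries were below both DMSO libraries. The share of all genes is not given for this count or for that of the 14 genes. Genes were called with limma at a Benjamini-Hochberg adjusted p under 0.05 over all genes tested, and such a fall in a whole culture cannot be divided between fewer cells that express a gene and less of its RNA per cell.

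**Figure D1:**
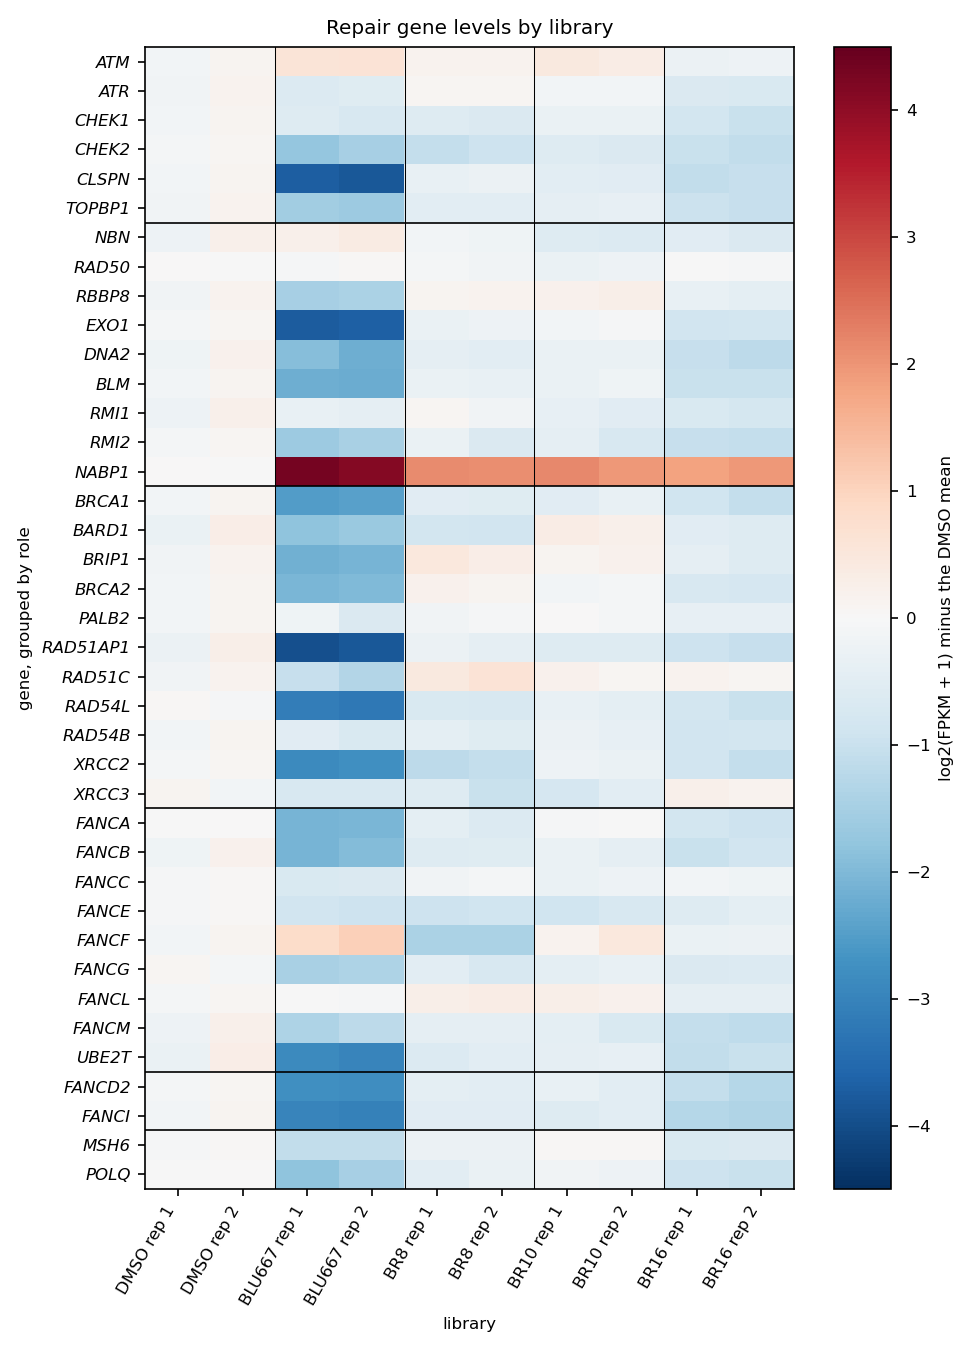
Level of each of the 39 repair genes (rows, grouped by role) in each of the 10 libraries (columns), as log2(FPKM + 1) minus the mean of the DMSO libraries, in blue where lower and in red where higher. The BLU667 columns are blue for most genes and red for NABP1, FANCF, ATM and NBN, and the colony columns are paler, with BR16 the bluest of them.

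In the adapted colonies, taken as the mean of BR8, BR10 and BR16, the same families were higher than after 24 h of BLU667 and mostly below DMSO. Against BLU667, 27 of the 39 members were higher, beside 32.4% of all genes tested, and 4 were lower (ATM, FANCF, NABP1 and NBN), beside 28.7%, with a median log2 difference of 0.98 against 0.03 over all genes. Against DMSO, 29 members were lower, beside 26.3% of genes tested, and NABP1 alone was higher, beside 22.9%, with a median log2 difference of -0.52 against -0.03. All 27 genes that were higher in the colonies than in BLU667 had fallen in BLU667, and 22 of these were still lower than DMSO. The shares of all genes with these patterns were not counted, and both calls rest on the same BLU667 libraries. For 18 genes all 6 colony libraries lay between the 2 BLU667 and the 2 DMSO libraries, a count given without its share of all genes. The comparisons share the DMSO and the BLU667 libraries and are not independent of each other. In a further fit the colony means entered as 3 replicates. Its error pools the spread between colonies with that between the DMSO libraries and between the BLU667 libraries. There NABP1 was called higher than DMSO (5.87% of all genes tested) and CHEK2 and FANCE lower (5.18%), and no other member was called by limma.

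**Figure D2:**
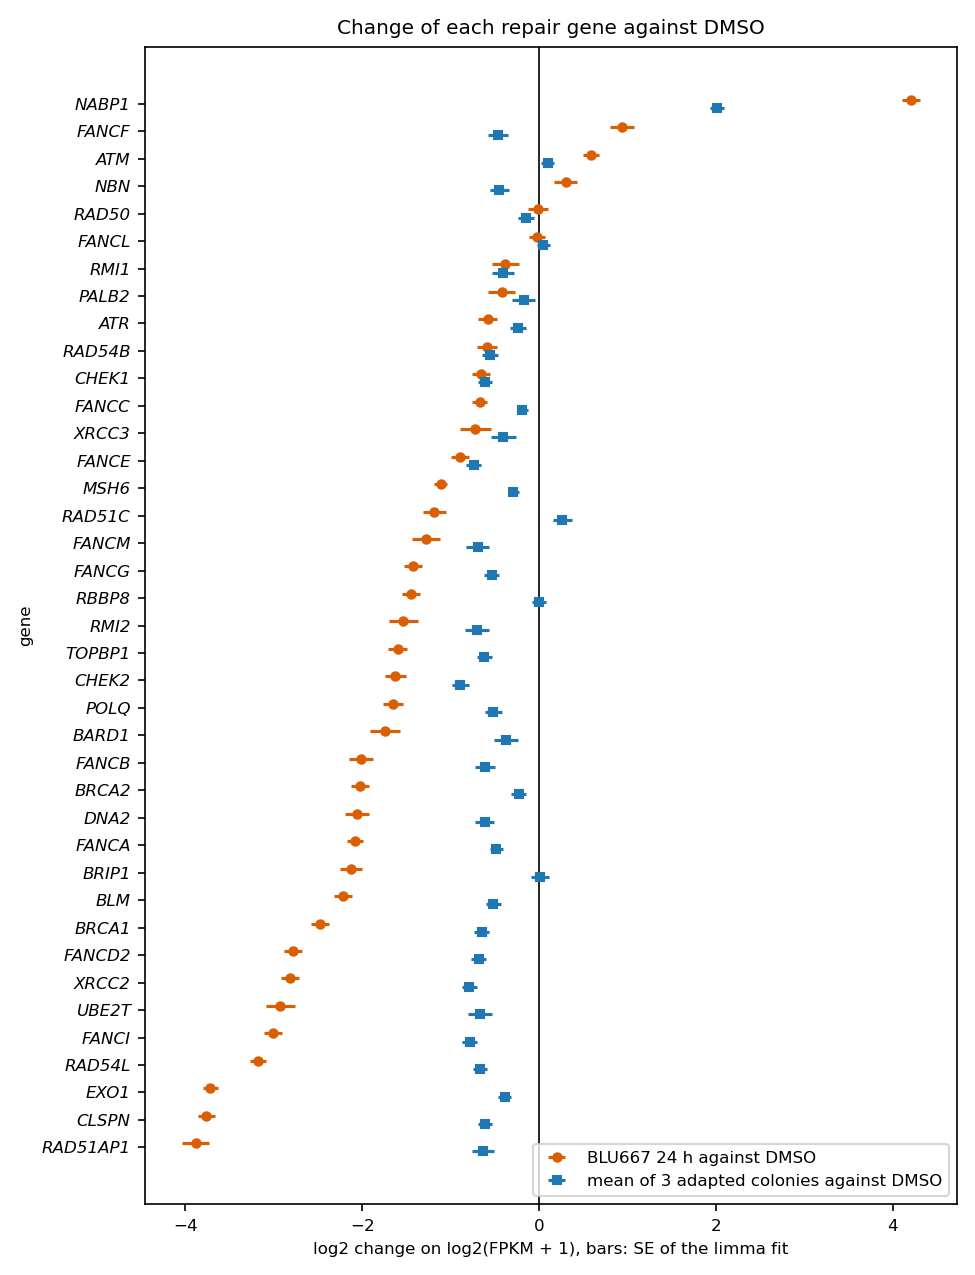
Log2 change on log2(FPKM + 1) of each repair gene against DMSO, after 24 h of BLU667 (circles) and as the mean of the 3 adapted colonies (squares), with bars for the SE of the limma fit. In BLU667 the genes run from RAD51AP1 at -3.88 to NABP1 at 4.21, and in the colonies all but NABP1 lie between -0.89 and 0.27.

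Among the damage kinases and checkpoint genes, 5 of 6 fell in BLU667 (31.2% of all genes tested) and ATM rose (29.0%). ATM (ENSG00000149311, GRCh38 chromosome 11, 108222484 to 108369102, plus strand) encodes the kinase that starts the response to a double-strand break. ATM was 5.11 and 6.19 FPKM in DMSO, 8.91 and 9.03 in BLU667, 6.39 and 6.48 in BR8, 7.88 and 7.41 in BR10, and 4.5 and 4.68 in BR16. Both BLU667 libraries were above all other libraries, and BR16 was below DMSO while BR8 and BR10 were above it. ATM rose by 0.59 ± 0.091 (log2 change ± SE) in BLU667 (adjusted p = 0.000666) and was lower in the colonies than in BLU667 by -0.49 ± 0.074 (adjusted p = 0.000595), or -0.31 without the colony BR16. Its mean over the colonies did not pass the test against DMSO (0.10 ± 0.074, adjusted p = 0.293), and that difference was called without DMSO replicate 2 (0.22) or without the colony BR16 (0.27) and turned to -0.02 without DMSO replicate 1. ATR, the kinase that answers stalled replication forks, fell from 6.62 and 8.64 FPKM to 4.55 and 4.91 in BLU667 (-0.58 ± 0.11, adjusted p = 0.00198). In FPKM, ATM was above ATR in both BLU667 libraries, where ATR had been above ATM in both DMSO libraries. That order depends on the gene lengths used, 23972 bases for ATM and 12496 for ATR. In reads ATM was above ATR in DMSO as well (2270 and 2348 against 1534 and 1708).

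CLSPN (ENSG00000092853, chromosome 1, 35720218 to 35769967, minus strand) encodes claspin, the adaptor through which ATR activates the checkpoint kinase CHK1. CLSPN stood at 12.3 and 14.8 FPKM in DMSO, 0.116 and 0.0213 in BLU667, 10.6 and 11.1 in BR8, 9.44 and 9.21 in BR10, and 5.80 and 6.06 in BR16. These BLU667 levels came from 11 and 2 reads, against 1230 and 1268 in DMSO, and no libraries of the BLU667, colony and DMSO sets overlapped. In rank by mean level among the 39 members CLSPN went from 9 in DMSO to 39 in BLU667. The log2 change was -3.76 ± 0.099 (adjusted p = 6.77e-08), and -6.39 with a pseudocount of 0.1 in place of 1 or -7.83 with voom (limma's test for counts) on the recovered reads. In the colonies CLSPN was -0.61 ± 0.081 from DMSO (adjusted p = 0.000429), or -0.39 without the colony BR16.

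CHEK2 (ENSG00000183765, chromosome 22, 28687743 to 28742422, minus strand) encodes CHK2, the kinase that ATM activates, and its counts are uncertain because partial pseudogene copies exist. CHEK2 was 5.35 and 6.09 FPKM in DMSO, 0.986 and 1.38 in BLU667, 2.19 and 2.51 in BR8, 3.52 and 3.24 in BR10, and 2.34 and 2.13 in BR16. Every colony library lay between BLU667 and DMSO, with BR10 the highest of the colonies. CHEK2 fell by 1.63 on the log2 scale in BLU667 (SE 0.12, adjusted p = 8.73e-06) and, on this scale, had the largest fall of any member in the colonies against DMSO (-0.89 ± 0.095, adjusted p = 0.000132). CHEK1, which encodes the ATR target CHK1, was 9.98 and 12.1 FPKM in DMSO, 6.94 and 6.31 in BLU667 and 5.05 to 8.71 in the colonies. It fell in BLU667 (-0.65 ± 0.10, adjusted p = 0.000731) and was lower than DMSO in the colonies (-0.61 ± 0.084, adjusted p = 0.000518), and the difference of the colonies from BLU667 did not pass the test (0.04 ± 0.084, adjusted p = 0.682). TOPBP1, the activator of ATR, went from 16.3 and 20.8 FPKM to 5.55 and 5.29 in BLU667 (-1.60 ± 0.11, adjusted p = 5.6e-06).

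Among the genes for sensing and cutting back broken ends, 5 of 9 fell in BLU667 (31.2% of all genes tested) and NABP1 rose (29.0%). EXO1 (ENSG00000174371, chromosome 1, 241847967 to 241895148, plus strand) encodes a nuclease that digests one strand from a break over long distances. EXO1 held 13.8 and 15.8 FPKM in DMSO, 0.165 and 0.236 in BLU667, 11.9 and 12.6 in BR8, 13.5 and 14.3 in BR10, and 7.69 and 7.99 in BR16. BLU667 was lowest by far, BR10 overlapped DMSO, and BR8 and BR16 lay below it. The fall in BLU667 was -3.71 ± 0.086 (adjusted p = 5.13e-08), or -5.64 with a pseudocount of 0.1 and -6.12 with voom. The colonies were 3.33 ± 0.07 above BLU667 (adjusted p = 3.49e-08), which was the largest rise of a member on this scale, whereas with a pseudocount of 0.1 or voom EXO1 (5.22 and 5.72) rose less than CLSPN (5.72 and 7.18). EXO1 was -0.39 ± 0.07 from DMSO in the colonies (adjusted p = 0.0023), a call that was lost without the colony BR16 (-0.17). DNA2 (-2.06 ± 0.13, adjusted p = 5.11e-06) and the helicase BLM (-2.22 ± 0.10, adjusted p = 7.79e-07), which form the other long-range resection route, fell with EXO1 in BLU667. RBBP8, which encodes CtIP, the cofactor that lets MRE11 start the cut, fell from 13.3 and 16.4 FPKM to 4.64 and 4.91 (-1.45 ± 0.10, adjusted p = 7.29e-06) and stood at 10.8 to 18.1 FPKM in the colonies (0.00 ± 0.082 from DMSO, adjusted p = 0.996). That mean joins colonies that differed (F test adjusted p = 0.00266). Against DMSO RBBP8 was 0.14 in BR8 (adjusted p = 0.272), 0.24 in BR10 (adjusted p = 0.0906) and -0.38 in BR16 (adjusted p = 0.0153) by limma. MRE11 itself, which is not one of the 39 and is named after its values were seen, fell by 0.90 on the log2 scale in BLU667 (SE 0.082, adjusted p = 3.35e-05).

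NBN and RAD50 of the sensor complex were not called in BLU667. NBN (ENSG00000104320, chromosome 8, 89933336 to 90003228, minus strand) encodes nibrin, which brings ATM to the break. NBN was 36.4 and 49.6 FPKM in DMSO, 50.3 and 55.0 in BLU667, 38.5 and 37.1 in BR8, 28.2 and 27.1 in BR10, and 29.6 and 26.7 in BR16. The BLU667 libraries were the highest, BR8 overlapped DMSO, and BR10 and BR16 were below all of these. The rise in BLU667 did not pass the test (0.30 ± 0.14, adjusted p = 0.0874), and came to 0.08 without DMSO replicate 1, but it was called without DMSO replicate 2 (0.52), with median-of-ratios scaling (0.35), quantile normalization (0.51), voom (0.36) or the GC trend removed (0.26). The colonies were lower than BLU667 (-0.75 ± 0.11, adjusted p = 0.00051) and than DMSO (-0.45 ± 0.11, adjusted p = 0.0103), the latter not called without DMSO replicate 2 (-0.23). RAD50 stayed between 0.595 and 1.03 FPKM in every library and passed no test, but 79.7% of its annotated exon bases are shared with another gene of the same strand, which makes its low level uncertain.

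NABP1 (ENSG00000173559, chromosome 2, 191678068 to 191696659, plus strand) was the one member called higher than DMSO in the adapted colonies in the main fit. With voom or the GC trend removed RAD51C was called higher as well, and without the colony BR16 so were ATM and FANCL. NABP1 had the largest rise in BLU667. It encodes SSB2, a single-strand DNA binding protein of the SOSS complex, which acts at breaks. NABP1 was 4.23 and 4.18 FPKM in DMSO, 102 and 89.2 in BLU667, 21.7 and 21.0 in BR8, 22.5 and 19.1 in BR10, and 17.3 and 19.0 in BR16. All 6 colony libraries lay above DMSO and below BLU667, and in rank by mean level NABP1 went from 29 of the 39 in DMSO to 1 in BLU667 and 3 in each colony. NABP1 rose by 4.21 ± 0.10 in BLU667 (adjusted p = 5.13e-08) and by 2.01 ± 0.084 from DMSO to the colonies (adjusted p = 7.92e-07), and the colonies were -2.19 ± 0.084 from BLU667 (adjusted p = 3.63e-07). The 3 colonies did not differ in NABP1 by the F test (adjusted p = 0.17). Its SOSS partner INTS3 rose as well (1.07 ± 0.083 in BLU667, adjusted p = 1.33e-05) and was 6.84 to 10.1 FPKM in the colonies, beside 8.12 and 8.07 in DMSO (0.03 ± 0.067, adjusted p = 0.718). By colony INTS3 was -0.20 from DMSO in BR8 (adjusted p = 0.0717), 0.06 in BR10 (adjusted p = 0.574) and 0.24 in BR16 (adjusted p = 0.0464) by limma. The related NABP2 (-0.68 ± 0.093, adjusted p = 0.000336) and the third subunit INIP (-0.29 ± 0.10, adjusted p = 0.0408), named after their values were seen, fell in BLU667.

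**Figure D3:**
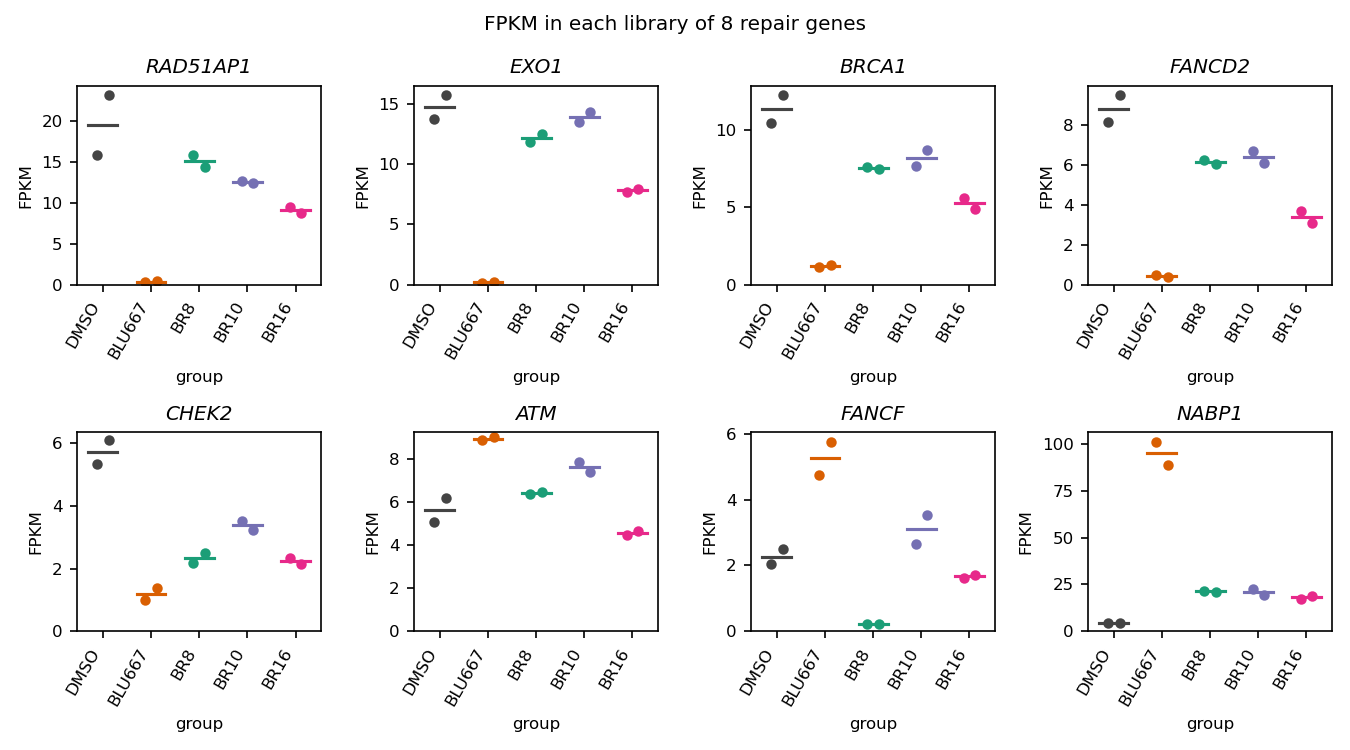
FPKM in each library (points) and the group mean (lines) of 8 repair genes in DMSO, BLU667, BR8, BR10 and BR16, each panel with its own axis from 0. RAD51AP1, EXO1, BRCA1 and FANCD2 drop in BLU667 and stand between it and DMSO in BR16, whereas ATM, FANCF and NABP1 are highest in BLU667, and FANCF is near 0 in BR8.

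All 11 genes of the BRCA complexes and of strand exchange fell in BLU667 (31.2% of all genes tested), with a median of -2.02, although the call of PALB2 depended on the settings. RAD51AP1 (ENSG00000111247, chromosome 12, 4538798 to 4560048, plus strand) encodes a DNA binding protein that helps strands to pair. RAD51AP1 was 15.8 and 23.1 FPKM in DMSO, 0.311 and 0.427 in BLU667, 15.8 and 14.4 in BR8, 12.6 and 12.5 in BR10, and 9.46 and 8.72 in BR16. The DMSO replicates were far apart, yet every colony library was many times above BLU667, and BR8 alone reached the lower DMSO library. RAD51AP1 fell by 3.88 in BLU667 (SE 0.15, adjusted p = 3.74e-07), the largest fall on this scale, but with a pseudocount of 0.1 or voom it fell less (-5.37 and -5.61) than CLSPN (-6.39 and -7.83). In the colonies the difference was 3.25 ± 0.13 from BLU667 (adjusted p = 3.74e-07) and -0.63 ± 0.13 from DMSO (adjusted p = 0.00367), or -0.37 from DMSO without DMSO replicate 2.

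BRCA1 (ENSG00000012048, chromosome 17, 43044295 to 43170245, minus strand) encodes the ubiquitin ligase that favours resection and brings in PALB2 and BRCA2. Its levels were 10.5 and 12.3 FPKM in DMSO, 1.16 and 1.26 in BLU667, 7.62 and 7.49 in BR8, 7.68 and 8.69 in BR10, and 5.62 and 4.89 in BR16. The colony libraries lay above BLU667 and below DMSO without overlap. BRCA1 fell by 2.48 on the log2 scale in BLU667 (SE 0.10, adjusted p = 4.85e-07) and was -0.65 ± 0.084 from DMSO in the colonies (adjusted p = 0.000405). BARD1 (ENSG00000138376, chromosome 2, 214725646 to 214809711, minus strand) encodes the partner with which BRCA1 forms the ligase. BARD1 was 4.74 and 7.55 FPKM in DMSO, 1.00 and 1.20 in BLU667, 2.99 and 2.83 in BR8, 7.80 and 7.22 in BR10, and 3.94 and 3.65 in BR16. BR10 was at the level of DMSO and the other colonies were below it. BARD1 fell by 1.74 in BLU667 (SE 0.17, adjusted p = 4.24e-05), and the colony mean did not pass the test against DMSO (-0.37 ± 0.14, adjusted p = 0.0515), a value that ran from -0.66 (called) without DMSO replicate 1 to -0.08 without replicate 2. With voom, with a filter of 5 FPKM or with the GC trend removed, BARD1 was called lower in the colonies than in DMSO.

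BRIP1 (ENSG00000136492, chromosome 17, 61681266 to 61863521, minus strand) encodes the helicase FANCJ, which binds BRCA1. In the same order BRIP1 was 5.67 and 7.39 FPKM in DMSO, 0.675 and 0.763 in BLU667, 9.36 and 8.28 in BR8, 7.10 and 7.65 in BR10, and 4.59 and 3.98 in BR16. BR8 was above DMSO, BR16 below it and BR10 overlapped it. BRIP1 fell by 2.12 in BLU667 (SE 0.12, adjusted p = 2.81e-06) and over the 3 colonies came to 0.02 ± 0.10 from DMSO (adjusted p = 0.912), a value near 0 that ran from -0.15 without DMSO replicate 1 to 0.18 without replicate 2. BRCA2 (ENSG00000139618, chromosome 13, 32315474 to 32400266, plus strand) encodes a protein that readies single strands for invasion. BRCA2 held 3.70 and 4.60 FPKM in DMSO, 0.232 and 0.30 in BLU667, 4.83 and 4.57 in BR8, 3.69 and 3.86 in BR10, and 2.12 and 2.03 in BR16. BR8 and BR10 overlapped DMSO and BR16 lay below it. BRCA2 fell by 2.02 in BLU667 (SE 0.10, adjusted p = 1.3e-06), or by 3.54 with a pseudocount of 0.1 and 3.90 with voom. Its call against DMSO in the colonies (-0.23 ± 0.083, adjusted p = 0.0495) was lost without DMSO replicate 2 (-0.10), without any 1 library of BLU667 or of a colony (-0.22 to -0.24) and without the colony BR16 (0.024), and was kept without DMSO replicate 1 (-0.36). PALB2, the bridge from BRCA1 to BRCA2, fell least of the 11, from 3.93 and 4.86 FPKM to 3.75 and 2.39 (-0.42 ± 0.16, adjusted p = 0.0439). That call was lost without DMSO replicate 2 (-0.30), without BLU667 replicate 2 (-0.18), without any 1 colony library (adjusted p = 0.0606 to 0.0655), with the replicate block (adjusted p = 0.06), in a fit of the 2 groups alone (adjusted p = 0.168), with no filter (adjusted p = 0.111) and with median-of-ratios scaling (-0.38) or quantile normalization (-0.39).

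XRCC2 (ENSG00000196584, chromosome 7, 152644779 to 152676165, minus strand) encodes a factor that supports strand exchange. XRCC2 went from 6.40 and 7.17 FPKM in DMSO to 0.0585 and 0.154 in BLU667, and stood at 2.42 and 2.65 in BR8, 5.61 and 5.39 in BR10, and 3.25 and 2.72 in BR16. All colony libraries lay between BLU667 and DMSO, with BR10 the nearest to DMSO. The log2 change was -2.81 ± 0.10 in BLU667 (adjusted p = 2.53e-07), or -5.10 with a pseudocount of 0.1 and -6.01 with voom on 5 and 13 reads, and -0.79 ± 0.084 from DMSO to the colonies (adjusted p = 0.000132). XRCC3 (ENSG00000126215, chromosome 14, 103697609 to 103715504, minus strand), which encodes another such factor, was 2.41 and 1.88 FPKM in DMSO, 0.908 and 0.897 in BLU667, 1.11 and 0.561 in BR8, 0.832 and 1.27 in BR10, and 2.65 and 2.49 in BR16. BR16 was above DMSO while BR8 and BR10 were near BLU667, but 76.7% of the exon bases of XRCC3 overlap KLC1 on the opposite strand, which this non-directional library cannot tell apart. XRCC3 fell by 0.72 in BLU667 (SE 0.17, adjusted p = 0.00688). Its call in the colonies against DMSO (-0.41 ± 0.14, adjusted p = 0.0425) was lost without either DMSO library (-0.28 and -0.53), without either BLU667 or BR16 library, without BR8 replicate 2 (-0.33), without BR10 replicate 1 (-0.35) and with the GC trend removed (-0.24), and was kept without the colony BR16 (-0.70). RAD51C, which binds XRCC3 and also acts in a complex with XRCC2, fell from 3.96 and 5.03 FPKM to 1.64 and 1.20 in BLU667 (-1.18 ± 0.13, adjusted p = 9.51e-05) and stood at 4.84 to 7.28 FPKM in the colonies (0.27 ± 0.11 from DMSO, adjusted p = 0.0686, or 0.41 and called without DMSO replicate 2). RAD51C was also called higher in the colonies with voom (0.34, adjusted p = 0.0289) or with the GC trend removed (0.23, limma adjusted p = 0.0439). RAD54L, the motor that drives strand invasion, went from 9.40 and 8.58 FPKM to 0.141 and 0.0717 (-3.17 ± 0.093, adjusted p = 9.58e-08), while its relative RAD54B fell by 0.59 (SE 0.11, adjusted p = 0.00224). RAD54B was also lower in the colonies than in DMSO (-0.55 ± 0.092, adjusted p = 0.0015). Of the exon bases of RAD54L 25.1% and of RAD54B 59.1% overlap other genes, so that both levels are uncertain.

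Of the 9 Fanconi core and ubiquitin-conjugating genes 7 fell in BLU667 (31.2% of all genes tested), FANCF rose (29.0%) and FANCL did not pass the test. UBE2T, the enzyme that passes ubiquitin to FANCD2, was the highest of them in DMSO, at 34.2 and 51.2 FPKM against 4.88 and 4.42 in BLU667 (-2.92 ± 0.16, adjusted p = 2.23e-06), and stood at 18.7 to 31.9 FPKM in the colonies. FANCL, the ligase that works with UBE2T, held 10.2 and 11.9 FPKM in DMSO and 11 and 10.7 in BLU667 (-0.02 ± 0.087, adjusted p = 0.829). UBE2T thus lost most of its level in libraries in which that of its ligase stayed within 10.2 to 11.9 FPKM. Of the scaffold subunits, FANCA fell by 2.08 (SE 0.089, adjusted p = 5.29e-07), FANCB by 2.01 (SE 0.14, adjusted p = 7.11e-06) and FANCG by 1.42 (SE 0.10, adjusted p = 9.73e-06). FANCE (-0.89 ± 0.10, adjusted p = 0.000118) and FANCC (-0.67 ± 0.081, adjusted p = 0.00017), which join FANCF in the module that presents FANCD2, fell less. FANCE held 3.29 and 3.5 FPKM in DMSO, 1.44 and 1.30 in BLU667 and 1.31 to 2.24 in the colonies, where it was lower than DMSO (-0.74 ± 0.083, adjusted p = 0.000171). Overlap with other genes touches 23.6% of the exon bases of FANCA, 18.7% of FANCL and 11.3% of FANCF.

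FANCF (ENSG00000183161, chromosome 11, 22622890 to 22625841, minus strand), the adaptor of that module, had the widest spread among the colonies. FANCF was 2.03 and 2.51 FPKM in DMSO, 4.75 and 5.77 in BLU667, 0.212 and 0.201 in BR8, 2.66 and 3.54 in BR10, and 1.63 and 1.72 in BR16. BLU667 was above every other library, BR10 was just above DMSO, and BR8 was far below the rest, with 11 and 10 reads against 78 to 237 in BR10 and BR16. FANCF rose by 0.94 ± 0.14 in BLU667 (adjusted p = 0.000479) and was -1.43 from DMSO in BR8 (adjusted p = 7.22e-05), against 0.32 in BR10 (adjusted p = 0.0924) and -0.29 in BR16 (adjusted p = 0.122). The range of the colony means was 1.76 (F test adjusted p = 0.000149), or 3.37 with a pseudocount of 0.1 and 3.85 with voom. The mean of the colonies against DMSO (-0.47 ± 0.11, adjusted p = 0.00898) therefore stands for no single colony, and was not called without DMSO replicate 2 (-0.36) or with the colony means as 3 replicates (adjusted p = 0.547).

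FANCD2 and FANCI, the pair that the core complex tags with ubiquitin, fell together. FANCD2 (ENSG00000144554, chromosome 3, 10026414 to 10101930, plus strand) was 8.15 and 9.52 FPKM in DMSO, 0.461 and 0.398 in BLU667, 6.25 and 6.04 in BR8, 6.70 and 6.10 in BR10, and 3.67 and 3.07 in BR16. FANCI (ENSG00000140525, chromosome 15, 89243949 to 89317261, plus strand) held 20.1 and 24.5, 1.93 and 1.83, 15.4 and 15.3, 14.5 and 15.5, and 8.55 and 8.03 FPKM in the same order. For both genes BLU667, BR16, the other colonies and DMSO formed 4 steps that did not overlap. FANCD2 fell by 2.78 (SE 0.10, adjusted p = 2.81e-07) and FANCI by 3.01 (SE 0.098, adjusted p = 1.54e-07) in BLU667, and in the colonies they were -0.68 ± 0.085 (adjusted p = 0.000319) and -0.79 ± 0.08 (adjusted p = 0.000104) from DMSO, or -0.43 and -0.52 without the colony BR16. Of the 2 remaining members, POLQ, the polymerase of end joining at short repeats, fell by 1.65 (SE 0.11, adjusted p = 7.03e-06) and MSH6, a mismatch sensor, by 1.11 (SE 0.072, adjusted p = 5e-06).

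The 3 colonies differed from each other in most of these genes, with BR16 the lowest. By the moderated F test 33 of the 39 members differed among BR8, BR10 and BR16, against 58.1% of all genes tested. BR16 had the lowest mean of the 3 colonies in 31 members (40.5% of all genes tested) and was called lower than each of the other colonies in 22 (12.5%). With the GC trend removed it was called lower than both in 17, of which 15 were among the 22, including BRCA2, EXO1, FANCD2 and FANCI but not BRCA1. The share of all genes with this pattern was not counted for that setting. Against DMSO the members called lower numbered 24 in BR8 (27.3% of all genes tested), 16 in BR10 (21.5%) and 31 in BR16 (23.6%), and those called higher 4 in BR8 (24.0%), 2 in BR10 (19.2%) and 1 in BR16 (21.9%). The GC trend of these comparisons was -0.29 in BR8, -0.24 in BR10 and 0.27 in BR16. With it removed 28, 22 and 31 members were called lower and 4, 4 and 1 higher, counts given without their shares of all genes. The 11 genes lower in all 3 colonies (9.45% of all genes tested) were BRCA1, CHEK1, CHEK2, CLSPN, FANCD2, FANCE, FANCG, FANCI, RAD54L, RMI2 and TOPBP1. With the replicate block there were 8, without CHEK1, CLSPN and RMI2, and with the GC trend removed 20, all 11 among them. For these settings too the share of all genes was not counted. In a fit of the 2 groups alone, BR8 had 15 calls (35.6% of all genes tested) in place of 28 (51.3%) and BR10 had 3 (23.9%) in place of 18 (40.8%), namely NABP1, CHEK2 and FANCE, and BR10 had 10 without replicate 1 and 10 without replicate 2.

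Between pairs of colonies, 26 members were higher in BR8 than in BR16 (24.1% of all genes tested) and 3 were lower (24.5%). With the GC trend removed these were 19 (18.3%) and 4 (16.4%), with a median difference of 0.27 in place of 0.42, and 18 members were called in the same direction both ways. From BR10 to BR16, 28 members were higher in BR10 (21.1%) and 2 lower (22.0%), and 28 (20.1%) and 3 (16.4%) with the trend removed, 27 of them the same call. BR8 and BR10 were closer, with 7 members lower in BR8 (11.5% of all genes tested) and none higher by limma (11.3%; 4 were higher at an unadjusted p under 0.05, and 3, NBN, RAD51C and RMI1, by voom). These 7 were BARD1, CHEK2, FANCA, FANCF, MSH6, RAD54L and XRCC2. With the trend removed, 11 were lower (15.8%), all 7 of these among them, and NBN and RMI1 were higher (14.9%).

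The 4 members with the largest range of colony means were FANCF, BARD1, XRCC3 and BRIP1. BARD1 was lower in BR8 than in BR10 by -1.12 ± 0.17 (adjusted p = 0.00205) and higher in BR10 than in BR16 by 0.83 ± 0.17 (adjusted p = 0.00537). XRCC2 showed the same order, with BR8 -0.88 ± 0.10 from BR10 (adjusted p = 0.000661). BRIP1, in contrast, was highest in BR8, called above DMSO there (0.39, adjusted p = 0.0292) and below it in BR16 (-0.50, adjusted p = 0.0112), a difference of 0.89 ± 0.12 between these colonies (adjusted p = 0.00112) and a range of 0.58 with the GC trend removed. FANCL likewise was above DMSO in BR8 (0.30, adjusted p = 0.0194) and below it in BR16 (-0.39, adjusted p = 0.00661). RAD51C was above DMSO in BR8 (0.51, adjusted p = 0.0112), but the colonies were not called different in it by the F test (adjusted p = 0.054). XRCC3 was higher in BR16 than in BR8 and BR10, with a range of 0.97 (F test adjusted p = 0.004) that fell to 0.36 and was not called with the GC trend removed (adjusted p = 0.0837).

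**Figure D4:**
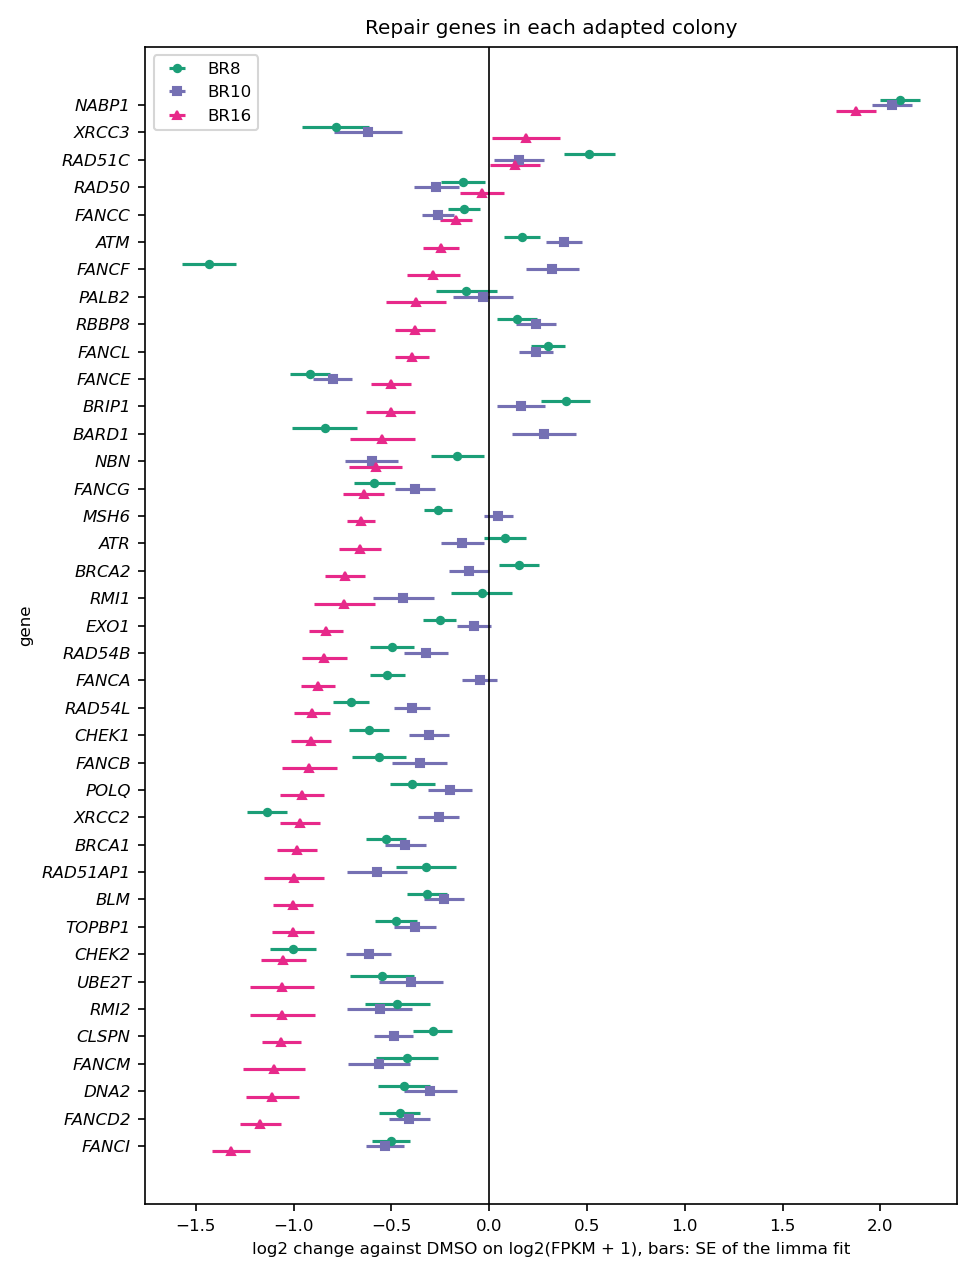
Log2 change against DMSO on log2(FPKM + 1) of each repair gene in BR8 (circles), BR10 (squares) and BR16 (triangles), with bars for the SE of the limma fit. BR16 lies furthest left for most genes, from FANCI at -1.32, whereas FANCF is lowest in BR8 at -1.43 and NABP1 is above 1.8 in each colony.

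Other genes of the same pathways mostly fell in BLU667 as well. Of 62 further homologous recombination and Fanconi genes 58 were tested, of which 33 fell and 9 rose in BLU667 (31.2% and 29.0% of all genes tested), with a median of -0.62 against -0.01 over all genes tested. The falls were led by the helicase RECQL4 (-2.90), the helicase MCM8 (-2.58), the ubiquitin ligase RFWD3 (-2.42) and the fork protector TIMELESS (-2.40). The 9 that rose were INTS3 (1.07), the BRCA1-A complex genes ABRAXAS1 (0.94) and BABAM2 (0.93), the crosslink nuclease FAN1 (0.59), the translesion polymerase genes REV3L (0.56) and REV1 (0.34), WDR48 (0.49), the cofactor of the enzyme that takes ubiquitin off FANCD2, the annealing factor RAD52 (0.45) and the helicase RECQL5 (0.39). Of the exon bases of ABRAXAS1 25.2% and of FAN1 24.3% lie opposite another gene, so that these levels are uncertain. In the colonies against DMSO 27 of these 58 fell (26.3% of all genes tested) and 3 rose (22.9%), namely BABAM2 (0.86), RAD52 (0.84) and RAD51D (0.30). The largest falls there were those of SFR1 (-1.59) and SWI5 (-1.43), which form a cofactor of strand exchange, RECQL4 (-1.57) and the Werner helicase WRN (-1.21).

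RAD52 anneals single strands in a route apart from BRCA2. Of the 62 further genes it was the one whose 6 colony libraries all stood above the 4 libraries of DMSO and BLU667. RAD52 was 5.12 and 4.71 FPKM in DMSO, 6.71 and 7.42 in BLU667, 12.4 and 12.8 in BR8, 8.31 and 8.90 in BR10, and 8.33 and 8.0 in BR16. It rose by 0.45 ± 0.081 in BLU667 (adjusted p = 0.00162) and by 0.84 ± 0.066 from DMSO to the colonies (adjusted p = 2.33e-05), and the colonies were 0.40 ± 0.066 above BLU667 (adjusted p = 0.000981). WRN went the other way, from 5.97 and 7.11 FPKM in DMSO to 3.87 and 3.81 in BLU667 and 1.45 to 2.97 in the colonies, which were lower than BLU667 as well (-0.58 ± 0.10, adjusted p = 0.00126). SFR1 too was lower in the colonies (4.32 to 6.69 FPKM) than in BLU667 (7.27 and 6.70) by -0.27 ± 0.092 (adjusted p = 0.033). WRN and SFR1 thus stood below the 24 h level in colonies in which 27 of the 39 members stood above it.

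Genes of S phase and mitosis moved with the repair genes. All 22 of a list from MKI67 and TOP2A to the MCM helicase genes fell in BLU667 (median -3.59), beside 31.2% of all genes tested. In the colonies 21 were lower than in DMSO (median -0.95), beside 26.3%, and all 22 were higher than in BLU667 (median 2.68), beside 32.4%. Their summed level was 1204 and 1349 FPKM in DMSO, 85.2 and 93.3 in BLU667, 717 and 733 in BR8, 789 and 843 in BR10, and 522 and 479 in BR16. In this sum BLU667 was lowest and BR16 lowest of the colonies, as in EXO1, BRCA1, FANCD2 and FANCI. Not every gene had this order, and FANCF, BARD1 and XRCC2 were lowest of the colonies in BR8. Of the 22 genes, 13 were called higher in BR8 than in BR16 (24.1% of all genes tested). The 2 called lower there (24.5%) were CDT1 and PLK1. Of 18 tested E2F, RB and DREAM genes 15 fell and 2 rose in BLU667 (31.2% and 29.0% of all genes tested). Among those that fell were E2F1 (-3.91) and MYBL2 (-5.73), which are named after their values were seen. In the colonies 15 of the 18 were higher and 3 lower than in BLU667 (32.4% and 28.7% of all genes tested). Of 23 tested genes of end joining, break signalling and mismatch repair, 16 fell and 2 rose in BLU667 (median -0.78), beside 31.2% and 29.0% of all genes tested. In the colonies against DMSO 11 fell (median -0.31), beside 26.3%. The part of the share of cycling cells in the changes of the repair genes was not tested.

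**Figure D5:**
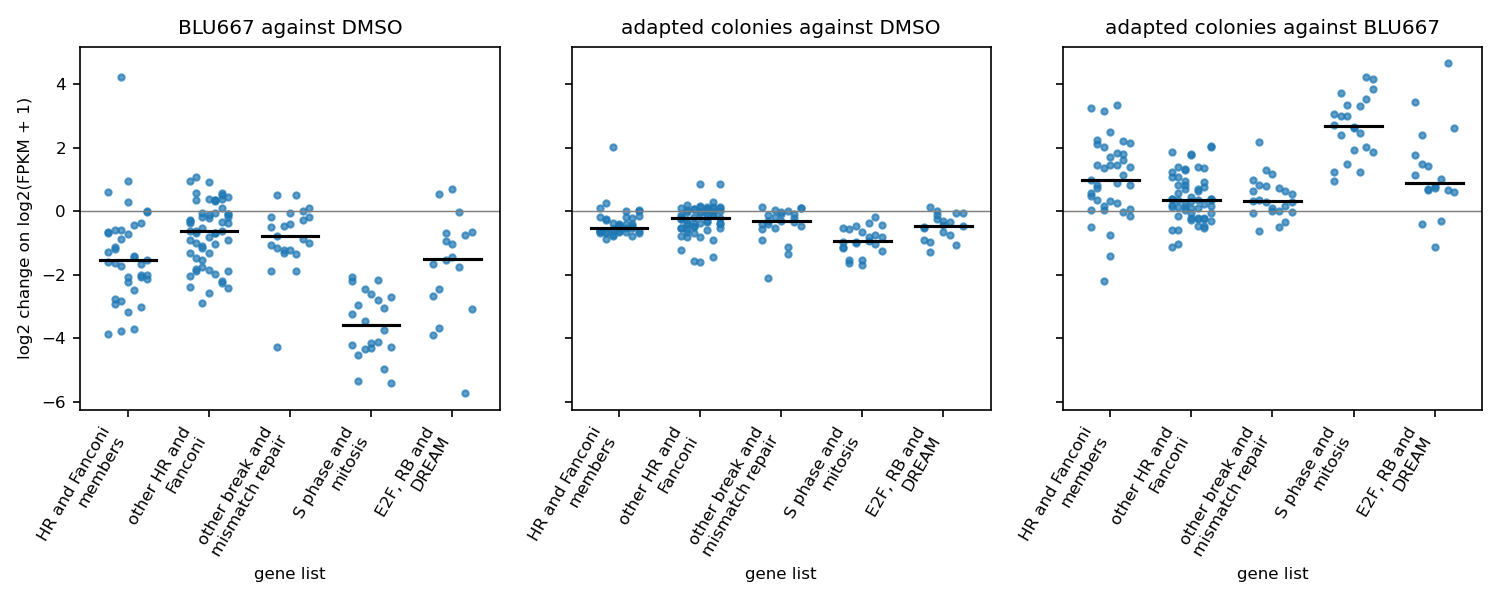
Log2 change on log2(FPKM + 1) of each tested gene (points) and the median (lines) of the 39 repair genes and 4 other gene lists, for BLU667 against DMSO, the adapted colonies against DMSO, and the adapted colonies against BLU667. The repair genes have a median of -1.53 in BLU667, between the S phase and mitosis list (-3.59) and the other repair lists (-0.62 and -0.78).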

How the data were processed

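RNA of TPC-1 cells was measured in 10 libraries, 2 for each of the 5 groups. Per the labels' protocols, RNA came from TRI reagent and Direct-zol columns, went through GlobinClear and was made into NEB non-directional libraries, so that reads of overlapping genes on opposite strands cannot be told apart. Per the submitters' processing notes, CASAVA, STAR 2.5, HTSeq 0.6.1 and DESeq2 (version given as 2) were used with the build GRCh38. Their gene annotation is not given in the sources used. The deposited values are FPKM, computed by the authors per gene for each library. Low values were whole multiples of 1 read for 100% of genes (tolerance 0.05), which gave the reads per gene and the depth of 15243703 to 21904245 reads.

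From the FPKM that the authors deposited, log2(FPKM + 1) was computed for the 13927 genes with at least 1 FPKM in at least 2 libraries, and 1 model of the 5 groups was fitted with limma 3.58.1 (R 4.3.3) with a variance trend. The colonies entered as the mean of 3 group means, and differences among them by a moderated F test. Tests were two-sided with Benjamini-Hochberg adjustment over all genes tested. Values in every library are given for the 3 members with the largest called fall and rise in each of the 3 main comparisons, the 4 with the largest range among colonies, those higher in BLU667, and BRCA1, BRCA2, FANCD2 and ATM. Of the other pathway genes, those called higher and the 4 largest falls are named. The members and lists were chosen with earlier results of these data known. Alternatives were a pseudocount of 0.1, no filter, a filter of 5 FPKM, median-of-ratios scaling, a replicate block, quantile normalization, voom on recovered reads, a fit with no variance trend, removal of the GC trend (loess, span 0.3), colony means as 3 replicates, fits of the compared groups alone, the colonies without BR16, and leaving out each library. On data simulated for BLU667 against DMSO (13013 genes) 76 of 94 genes with a 2-fold change and 93 of 97 with a 4-fold change were recovered, and 8 unchanged genes were called. The simulation gave every gene the same dispersion, changed few genes and held no GC trend. Its figures therefore do not give the error rates of the test on the real libraries. Figures were drawn with matplotlib 3.10.9 in Python 3.11.15.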

Additional observations from a re-analysis of the deposited data

Results flagged for a closer look

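Each of these results was set apart because the colonies differed from each other by a test of the difference. Of the 39 repair genes 33 differed among BR8, BR10 and BR16 by the F test of limma, beside 58.1% of all genes tested. With the GC trend removed 31 did, a count given without its share of all genes. The ranges of colony means on log2(FPKM + 1) were 1.76 for FANCF, with BR8 lowest, 1.12 for BARD1, with BR10 highest, 0.97 for XRCC3, with BR16 highest, and 0.89 for BRIP1, with BR8 highest. With the GC trend removed the range of XRCC3 fell to 0.36 and was not called, and that of BRIP1 fell to 0.58. XRCC3 also overlaps KLC1 on the opposite strand in 76.7% of its exon bases. BRIP1 was called above DMSO in BR8 and below it in BR16, and the difference between these colonies was 0.89 (limma adjusted p = 0.00112). FANCL was likewise above DMSO in BR8 and below it in BR16, with a difference of 0.70 (limma adjusted p = 0.000758). The cause of these differences was not tested.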

How the results depend on the processing

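Of the 144 alternative counts of repair genes called, 138 stayed within 1.5 times the count reported. The exceptions were BLU667 against DMSO with the filter of 5 FPKM (23 in place of 35, with 25 of the 39 members tested), the adapted colonies against DMSO with colony means as 3 replicates (3 in place of 30), BR8 and BR10 against DMSO with only the groups compared (15 in place of 28 and 3 in place of 18, on fewer libraries), and BR10 without BR10 replicate 1 or replicate 2 (10 each). With 1 library left out the counts ran from 34 to 36 for BLU667 against DMSO, 26 to 31 for the colonies against DMSO, 30 to 32 for the colonies against BLU667, 19 to 27 for BR8, 10 to 23 for BR10, 28 to 33 for BR16 and 22 to 34 for the F test among colonies. Of the alternatives for single genes named, 1030 kept direction and side of the threshold, 13 became called, 45 lost the call and 5 turned. The 5 were differences between the colonies and DMSO near 0: ATM at -0.017 and BRIP1 at -0.15 without DMSO replicate 1, BRIP1 at -0.010 without BR8 replicate 1 and at -0.012 without BR16 replicate 1, and BRCA2 at 0.024 without the colony BR16. With 1 library left out ATM ran up to 0.22 and BRIP1 up to 0.18, both without DMSO replicate 2. For these the cause was not tested. With the replicate number as a block, 34 members were called in BLU667, 27 in the colonies against DMSO, 31 against BLU667, 26, 16 and 32 in BR8, BR10 and BR16, and 32 by the F test. Across genes, the differences between replicate 1 and replicate 2 correlated between groups at -0.16 to 0.11, so that the numbers were not taken to pair libraries. Genes near 0 in BLU667, such as CLSPN with 11 and 2 reads, have fold changes set by the pseudocount and limited by these counts.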
